A study of Mus musculus with 2 samples.

Results

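Cycling CD8 T cells are killer T cells caught while copying their DNA or dividing. In 2 single-cell RNA libraries of tumour T cells they were selected on measured values, as cells with at least 1 UMI (unique molecular identifier, 1 counted message) of Cd8a or Cd8b1, at least 1 of Cd3d, Cd3e or Cd3g, none of Cd4 or Foxp3, and at least 1 of both Mki67 and Top2a. Cells with 1% or more of their UMIs from granzymes D to G were kept apart. The rule gave 2422 cells, 817 from the WT-labelled library and 1605 from that labelled Dapl1-KO, of 10758 CD8 T cells and of 21021 cells kept from the libraries. Mki67 encodes a protein that coats mitotic chromosomes and Top2a a topoisomerase that untangles copied DNA, and both chose the cells, so their levels are not results.

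The study asked how T cells in tumours differ in gene expression without Dapl1, and centres on how CD8 T cells work and become exhausted. Flow sorting took cells carrying CD45, found on blood-derived cells, and CD90.2, found on T cells and some innate lymphocytes, from tumours of C57BL/6 mice, an inbred strain. One library came from WT mice and one from mice labelled Dapl1-KO, and both were counted at the 3′ ends of messages. The tumour line, the age and sex of the mice, how many animals were pooled, and how Dapl1 was disrupted are not given in the sources used here. Paired values below are in the order WT label, then Dapl1-KO label. With 1 library per label there was no replicate, so no difference below has a test. Intervals are exact 95% intervals that cover counting error only.

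As background, a T cell that commits to divide releases E2F factors from retinoblastoma proteins, which switch on the genes that license and copy DNA. A later wave of genes, driven by B-MYB and FOXM1 acting through CHR and CCAAT elements, builds the spindle and the kinetochores. In tumours, CD8 T cells that meet antigen can divide while they carry inhibitory receptors such as PD-1, and progenitor cells marked by Tcf7 are known to supply them.

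The cells were much deeper than the rest. Their UMI medians were 32380 and 28921, against 7895.5 and 8103 in the other CD8 T cells, which had neither Mki67 nor Top2a UMIs (2846 and 2881 cells). Of the libraries' 16673 and 19662 barcodes, 13132 occurred in both, and the smaller copy of each was left out. Of the members, 801 and 1488 had a barcode that also occurred in the other library. A doublet score set at the loading rate marked 10.8% and 15.2% of them, against 6.68% and 5.21% of other CD8 T cells. Xist without Y-linked UMIs was found in 80.8% of the members labelled WT and 0% of those labelled Dapl1-KO, and Y-linked UMIs alone in 10.0% and 88.3%. The sex of the cells and the label therefore cannot be told apart in most of the comparison between libraries.

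Dapl1 was checked first, as the targeted gene. Levels are in CPM: a gene's UMIs were added up across a group of cells and divided by that group's total, times a fixed factor. Dapl1 stood at 11.9 and 12.5 CPM in cycling cells and at 85.7 and 66.7 CPM in other CD8 T cells. The 3′ counts may lie outside the deleted part, so Dapl1 checks neither label.

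The label of the cells was next read beside their markers. Besides Mki67 and Top2a, the markers Pclaf, a clamp-associated factor of DNA synthesis, and Stmn1, a microtubule-destabilising protein, were read in each cell after thinning it to 3000 UMIs. Pclaf had a UMI in 53.7% and 66.9% of cycling cells, in 1.82% and 3.52% of other CD8 T cells and in 1.14% and 1.85% of naive-like cells, whose UMI medians were 7703 and 8770.5. Stmn1 had one in 68.4% and 77.0%, in 5.604% and 10.4%, and in 4.195% and 5.32%. Neither comparison group had Mki67 or Top2a UMIs, so their low shares are in part set by how the cells were picked. Without thinning, Pclaf had a UMI in 84.6% and 90.5% of cycling cells and Stmn1 in 89.7% and 94.8%. The 8 CD8 and T cell receptor markers summed to 4492 and 5615 CPM, while B cell markers summed to 1.12 and 0.752 CPM and the CD4 markers to 0.591 and 0.233 CPM. Cells near the threshold looked less like the rest. The 76 and 99 members with exactly 1 UMI of both genes had 36.3 and 67.8 CPM of Pclaf, against 36.2 and 81.4 CPM in cells just outside, which had 1 of the genes only, and 366 and 511 CPM over all members. Stmn1 gave 121 and 169 CPM just inside, 100.3 and 179 CPM just outside and 512 and 646 CPM over all members.

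UMIs of tumour cells were gathered in few members. Melanocytic markers (Pmel, Mlana, Dct, Tyr, Tyrp1 and Mitf) summed to 307 and 973 CPM in cycling cells and to 48.4 and 66.6 CPM in other CD8 T cells, with none of the markers at 0. Of the members, 4 and 22 drew at least 0.5% of their UMIs from these markers and held 81.6% and 99.2% of all melanocytic UMIs of the class. Their UMI medians were 215790 and 170431. One member labelled WT held 2254 of 2264 Col1a1 UMIs, the collagen of fibroblasts. Macrophage markers summed to 153 and 212 CPM, against 118 and 162 CPM in other CD8 T cells. Values without the 5 and 22 members rich in melanocytic or stromal UMIs are given beside the list counts and medians they changed most.

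Promoters of cycle genes that were higher in the cells are shown first, since both waves of cycle genes are known to be read through elements there. Not every gene holds a match. The printed genes were chosen among those with a single window, outside a chromosome that was set aside. Sequences are RefSeq windows on GRCm38.p6, 5′ to 3′ on the gene's strand, from 250 bases before to 30 bases after the annotated start, with motif matches in capitals. The motifs were E2F sites (TTTGGCGC, TTTCGCGC, TTTCCCGC or GGCGGGAA), the CHR (TTTGAA or TTCGAA) and the CCAAT box, each on both strands, and no motif contains another. The best expressed G1/S genes with a match were Pclaf and Pcna, the sliding clamp of DNA polymerases. The best expressed G2/M genes with a match were Hmgb2, a chromatin protein that bends DNA, and Tubb5, a beta-tubulin. Cenpa, the histone of the centromere, and Tubb4b, another beta-tubulin, were added after their matches were seen, as the best expressed with a CHR and a CCAAT box.
Pclaf, chr9:65890073-65890352, plus strand: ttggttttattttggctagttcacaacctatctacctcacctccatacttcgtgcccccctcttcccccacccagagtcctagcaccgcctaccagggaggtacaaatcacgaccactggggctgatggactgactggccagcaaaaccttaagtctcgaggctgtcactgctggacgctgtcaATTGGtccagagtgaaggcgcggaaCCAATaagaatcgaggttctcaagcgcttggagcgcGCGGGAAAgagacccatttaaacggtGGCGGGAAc
Pcna, chr2:132253151-132253430, minus strand: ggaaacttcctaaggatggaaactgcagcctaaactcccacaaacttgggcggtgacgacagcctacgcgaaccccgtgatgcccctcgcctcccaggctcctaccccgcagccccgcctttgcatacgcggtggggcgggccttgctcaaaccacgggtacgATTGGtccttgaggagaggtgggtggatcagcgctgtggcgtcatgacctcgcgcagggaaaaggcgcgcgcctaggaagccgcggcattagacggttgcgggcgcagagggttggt
Hmgb2, chr8:57511593-57511872, plus strand: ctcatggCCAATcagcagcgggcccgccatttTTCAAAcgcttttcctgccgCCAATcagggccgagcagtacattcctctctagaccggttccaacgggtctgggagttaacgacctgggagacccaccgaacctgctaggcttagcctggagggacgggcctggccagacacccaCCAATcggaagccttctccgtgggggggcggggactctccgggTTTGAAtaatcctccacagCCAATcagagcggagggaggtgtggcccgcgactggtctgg
Tubb5, chr17:35838272-35838551, minus strand: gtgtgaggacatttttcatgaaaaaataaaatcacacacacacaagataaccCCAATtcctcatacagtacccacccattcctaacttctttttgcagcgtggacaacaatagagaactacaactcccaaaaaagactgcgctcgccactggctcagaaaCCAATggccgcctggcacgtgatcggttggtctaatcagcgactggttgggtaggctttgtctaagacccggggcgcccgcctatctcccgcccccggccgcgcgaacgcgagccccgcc
Cenpa, chr5:30666636-30666915, plus strand: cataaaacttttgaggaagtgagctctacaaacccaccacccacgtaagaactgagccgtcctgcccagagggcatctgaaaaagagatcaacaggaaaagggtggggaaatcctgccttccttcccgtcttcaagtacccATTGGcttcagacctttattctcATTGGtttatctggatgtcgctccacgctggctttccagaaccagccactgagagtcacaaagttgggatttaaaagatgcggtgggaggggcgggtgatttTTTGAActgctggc
Tubb4b, chr2:25224673-25224952, minus strand: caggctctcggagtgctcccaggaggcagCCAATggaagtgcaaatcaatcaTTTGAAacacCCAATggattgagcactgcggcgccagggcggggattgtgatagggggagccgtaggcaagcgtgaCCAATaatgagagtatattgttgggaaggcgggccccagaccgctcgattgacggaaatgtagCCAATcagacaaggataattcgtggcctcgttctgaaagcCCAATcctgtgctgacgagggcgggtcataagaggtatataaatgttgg

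Pclaf held both an E2F site and CCAAT boxes, while Cenpa and Tubb4b held a CHR and CCAAT boxes and no E2F site. Dut and Tuba1b, also among the best expressed, had no match in the window. Of 60 G1/S genes that were higher in cycling cells, 48 had a promoter window, and 19 of those (39.6%) held an E2F site, against 3.49% of all 32851 windows. A CHR was found in 9 (18.8%), against 19.2% of all windows. A CCAAT box was found in 30 (62.5%), against 37.4% of all windows, and both elements in 6 (12.5%), against 7.52%. Of 85 such G2/M genes, 70 had a window, and 44 (62.9%) held a CHR, 52 (74.3%) a CCAAT box and 37 (52.9%) both, against 19.2%, 37.4% and 7.52% of all windows. E2F sites were in 9 (12.9%). These shares were taken over windows reaching 50 bases past the start, and a match is only a match of letters.

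The cycling share of CD8 T cells was larger in the library labelled Dapl1-KO. It was 17.2% (16.1 to 18.3) of 4761 cells under the WT label and 26.8% (25.6 to 27.9) of 5997 under the other, 9.60 points more (8.03 to 11.2, counting error only). With every cell thinned to 3000 UMIs before the rule was applied, the shares were 5.58% and 11.1%. Thinned to 8000 UMIs they were 17.3% of 3225 and 26.2% of 4377 cells. Naive or central memory cells made up more of the CD8 cells labelled WT, and without them the shares were 24.4% and 32.2%. The direction was the same in each of these readings. The smallest difference of all settings tried was 4.93 points, with every deposited barcode kept. Taking just the cells that had Y-linked UMIs but lacked Xist and Tsix, the difference was 19.1 points, with 82 cycling cells labelled WT.

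The order of the states by cycling share depended on depth. Naive or central memory cells had the lowest share at each of 3 depths, clear of the other states' intervals at 8000 UMIs only. States were read after thinning to 8000 UMIs, which left out 4987 and 4830 of the kept cells of all types, because a deep cell shows more genes of any state. Naive or central memory cells, which had no Pdcd1 UMI and had Ccr7 or Lef1, cycled in 5.93% (4.42 to 7.77) and 9.04% (7.10 to 11.3) of cells. Cells with Pdcd1 but neither Havcr2 (TIM-3) nor Tcf7 cycled in 27.1% (24.0 to 30.4) and 35.9% (33.3 to 38.5). Their intervals did not overlap those of naive cells in either library. Cells with Pdcd1, Havcr2 and Gzmk cycled in 22.9% (19.3 to 26.9) and 30.8% (27.4 to 34.4), and those without Gzmk in 26.0% (21.4 to 31.0) and 31.0% (27.1 to 35.1). Progenitor-like cells, with Pdcd1 and Tcf7 and no Havcr2, cycled in 13.7% (8.70 to 20.2) of 153 and 18.05% (13.0 to 24.0) of 205 cells. Their interval lay below that of cells with Pdcd1 alone in both libraries at this depth only. Progenitor-like cells stood at 12.99% and 20.7% with all UMIs and at 2.78% and 8.16% at 3000 UMIs. At both of those depths their intervals overlapped those of cells with Pdcd1 alone in both libraries. Ly6c2 or Gzma effectors without Pdcd1 cycled in 15.3% and 23.0%, and the granzyme D to G rich cells in 21.7% and 22.02%. With all UMIs the order differed: cells with Pdcd1, Havcr2 and Gzmk were highest of the named states, at 46.0% and 54.5%, and cells with Pdcd1 alone stood at 15.5% and 24.5%, with lower UMI medians (9419.5 and 10543 against 22333 and 24236). At 3000 UMIs, cells with Pdcd1 alone stood at 8.82% and 15.4%, the granzyme D to G rich cells at 11.96% and 8.55%, and cells with Pdcd1 and Havcr2 without Gzmk at 8.25% and 16.1%. Naive or central memory cells stood at 2.67% (1.78 to 3.84) and 6.13% (4.61 to 7.96) there. These intervals overlapped those of progenitor-like cells and of Ly6c2 or Gzma effectors in both libraries. With all UMIs naive or central memory cells stood at 2.53% and 3.34%, and their intervals overlapped those of the effectors.

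**Figure D1:**
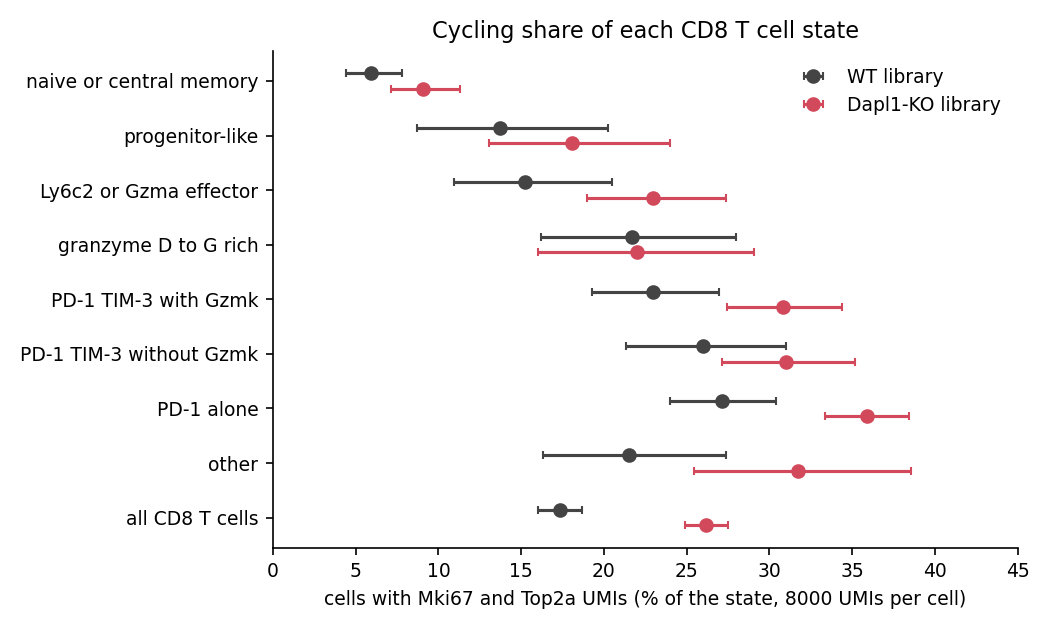
Share of each CD8 T cell state with both Mki67 and Top2a UMIs (x axis, % of the state's cells, each cell thinned to 8000 UMIs), by library label. Points are shares and bars exact 95% intervals for counting error; naive or central memory cells sit lowest, at 5.93% and 9.04%, and cells with PD-1 alone reach 27.1% and 35.9%.

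Seen from the cycling side, cells with Pdcd1 but neither Havcr2 nor Tcf7 made up 36.9% and 43.5% of cycling CD8 T cells, and naive or central memory cells 8.77% and 6.02%. Progenitor-like cells made up 3.76% and 3.23%. The share with a PD-1 and TIM-3 state depended on depth: with all UMIs, cells with Pdcd1, Havcr2 and Gzmk were 61.8% and 60.8% of cycling cells, and at 8000 UMIs 19.9% and 18.8%. Pdcd1 itself had a UMI in 47.8% and 51.9% of cycling cells thinned to 3000 UMIs and in 20.8% and 28.5% of other CD8 T cells. Havcr2 did in 23.4% and 19.7% against 9.79% and 11.0%. Tcf7, which encodes the TCF1 factor of progenitor and naive T cells, did in 3.55% and 3.93% against 33.7% and 23.1%.

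Cycling cells were next set against other CD8 T cells within each library, on counts summed over cells. A gene was called when it was at least 1.5-fold higher or lower in both libraries. Of 4728 genes tested, 1273 were higher (26.9%) and 378 lower (7.99%) in cycling cells, 34.9% in all. The median log2 ratio over all genes tested was 0.36 and 0.24. Scaling by the median of ratios removes that shift and gave 745 higher and 700 lower genes, so the balance of the directions follows from the scaling. Cycle genes must be higher by the choice of the cells, and their values describe the class without supporting anything.

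DNA copying genes were higher almost throughout. Of the 22 replication licensing genes, 15 passed the filter of 20 CPM and 13 were higher, with medians of 2.24 and 2.29 on the log2 scale. The exceptions were Cdt1, which loads the helicase, at 0.57 and 0.86, and Dbf4, the activator of the CDC7 kinase, at 0.11 and -0.18. Mcm5, a helicase subunit, stood at 84.3 CPM in cycling and 10.3 CPM in other cells labelled WT, and at 104 and 16.8 CPM in those labelled Dapl1-KO. All 24 fork genes that passed of 29 were higher (medians 2.19 and 2.06), with Pclaf at 4.91 and 4.78. All 17 deoxynucleotide supply genes that passed of 19 were higher too (2.09 and 1.73). Rrm2, a ribonucleotide reductase subunit, stood at 60.8 CPM in cycling and 2.01 CPM in other cells labelled WT, and at 92.8 and 3.81 CPM in those labelled Dapl1-KO, and Tyms, thymidylate synthase, was higher by 3.35 and 3.20. Of 26 clustered histones, 14 passed and 13 were higher (medians 1.75 and 1.90); the linker histone gene Hist1h1b stood at 485 and 459 CPM against 60.8 and 49.5 CPM. Hist1h1c was the exception at -0.37 and -0.30.

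The mitotic genes had the larger ratios. All 18 kinetochore and centromere genes that passed of 24 were higher, with medians of 4.11 and 3.89, and so were all 15 mitotic cyclins and kinases of 24 (3.78 and 3.45) and all 23 spindle, motor and cytokinesis genes of 33 (3.78 and 3.46). Hmmr, a spindle protein, reached 6.33 and 6.16 and Bub1, a checkpoint kinase, 6.54 and 5.65. Ccna2, cyclin A2, was the highest of the genes at 50 CPM or more, with 76.6 CPM in cycling and 1.90 CPM in other cells labelled WT, and 92.7 and 1.94 CPM in those labelled Dapl1-KO. These are log2 ratios of 5.34 (4.93 to 5.77) and 5.58 (5.19 to 5.99). Cenpf, a kinetochore protein, followed at 5.27 and 4.93 and Nusap1, which binds spindle microtubules, at 4.91 and 5.32. Cdc20 and Ube2c, which drive the anaphase-promoting complex, were higher by 4.22 and 3.80 and by 3.92 and 3.30. Of the condensin, cohesin and mitotic chromatin genes, all 23 passed and 22 were higher (1.85 and 1.75).

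The G1 machinery moved less. Of the 21 E2F, retinoblastoma and G1 cyclin genes, 11 passed and 6 were higher (medians 0.86 and 0.76). The D-type cyclin genes Ccnd2 and Ccnd3, which act at the entry to the cycle, were not called and stood at -0.49 and -0.46 and at -0.80 and -0.43. Among 20 of 23 CDK inhibitor and quiescence genes, 13 were lower and 3 were higher (medians -0.95 and -1.04). Klf2, a quiescence factor, had 54.7 CPM in cycling and 843 CPM in other cells labelled WT, and 51.7 and 529 CPM in those labelled Dapl1-KO. Cdkn1b, the inhibitor p27, stood at -0.98 and -1.03. The 3 that were higher were Cdkn1a, the p53 target p21, at 139 and 138 CPM against 56.9 and 68.6 CPM, Cdkn2a (1.99 and 1.64) and Ccng1 (0.97 and 0.72). Cdkn1a had a UMI in 28.4% and 26.97% of cycling cells thinned to 3000 UMIs and in 10.7% and 13.0% of other CD8 T cells. Of the p53 and DNA damage list, 12 of 20 passed, 5 were higher and 3 lower, with medians of 0.37 and 0.33, near those of all genes. Bbc3, a pro-death p53 target, was among the lower genes at -1.38 and -1.39.

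**Figure D2:**
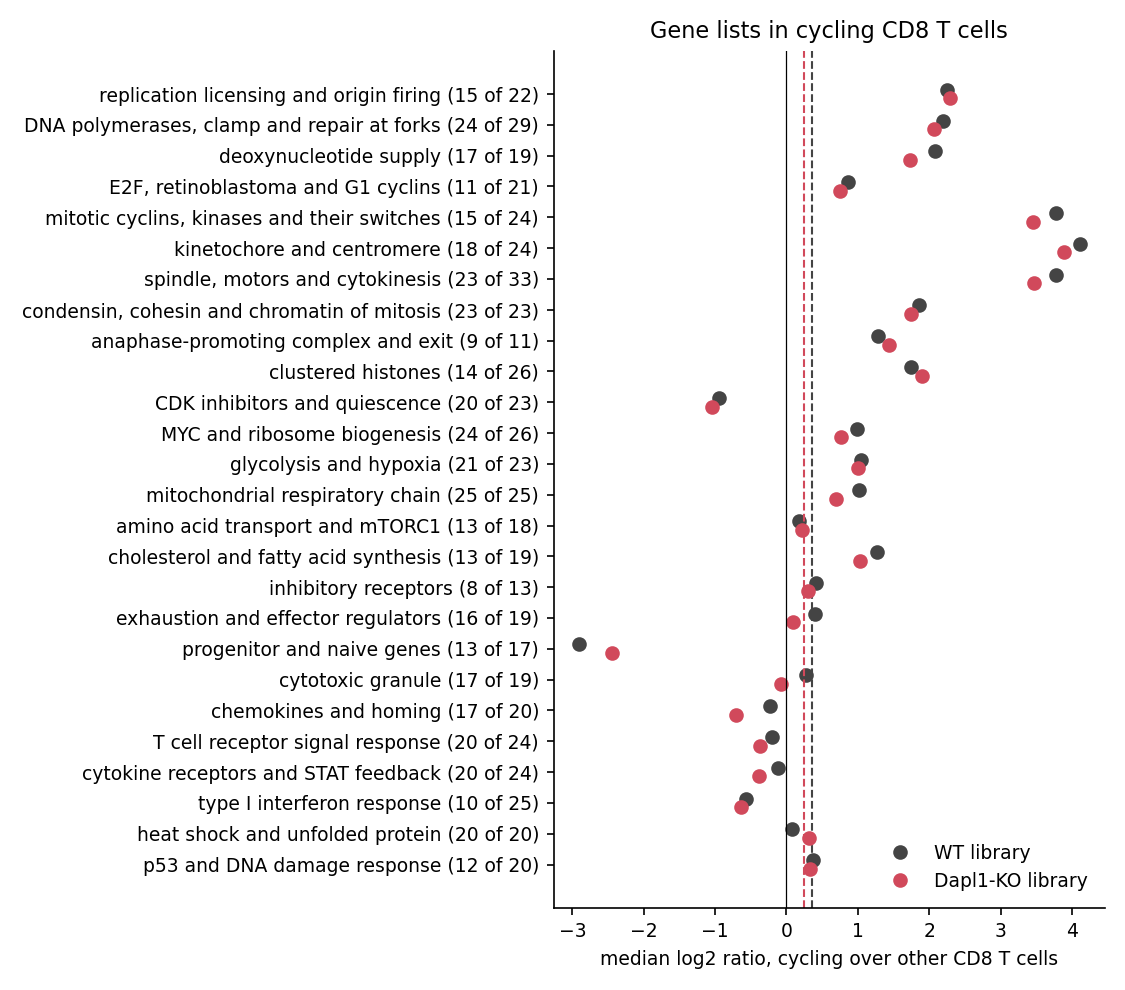
Median log2 ratio of cycling over other CD8 T cells for each gene list (x axis), with the members that passed 20 CPM of all members in brackets; 1 point per library, and dashed lines for the median of all genes tested (0.36 labelled WT, 0.24 labelled Dapl1-KO). Kinetochore genes reach 4.11 and 3.89 and progenitor and naive genes -2.91 and -2.45.

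Of 26 MYC and ribosome biogenesis genes, 24 passed, 15 were higher and 2 lower (medians 0.99 and 0.77). Srm, spermidine synthase, was among the higher genes at 1.90 and 1.74, whereas Myc itself was lower, at 23.8 CPM against 44.6 CPM in cells labelled WT and 15.9 against 25.9 CPM in those labelled Dapl1-KO. Its antagonist Mxd1 was lower as well (-1.02 and -0.78). Glycolysis and hypoxia genes were higher for 15 of 21 that passed (1.05 and 0.997), led by the enzyme gene Tpi1 at 1.72 and 1.52, and Ldha, lactate dehydrogenase, stood at 1197 and 1213 CPM against 377 and 493 CPM. Respiratory chain genes were higher for 17 of 25 (1.02 and 0.70) and cholesterol and fatty acid synthesis genes for 10 of 13 (1.26 and 1.03), with Fdps, which makes farnesyl diphosphate, at 2.22 and 1.68. The serine synthesis genes Phgdh and Psat1 stood at 2.09 and 1.77 and at 2.15 and 1.91. Without the members rich in melanocytic or stromal UMIs, glycolysis genes were higher for 12 of 21, respiratory chain genes for 13 of 25 and cholesterol and fatty acid genes for 8 of 11. The medians of the last list were then 1.10 and 0.675, and those left-out members held 52.8% of the UMIs of Scd2, a fatty acid desaturase, under the Dapl1-KO label.

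These metabolic differences were smaller when both sides were limited to cells with a Pdcd1 UMI, which also changed the depth of the cells compared. With a Pdcd1 UMI required on both sides (745 and 1501 cycling, 947 and 1298 other cells), a comparison chosen after seeing the data, glycolysis genes were higher for 5 of 20 (0.45 and 0.52) and respiratory chain genes for 5 of 25 (0.52 and 0.40). MYC and ribosome genes were still higher for 14 of 23 (0.97 and 0.71), and all 18 kinetochore genes that passed were (3.66 and 3.59). The median of all genes was then 0.17 and 0.13, and 818 of 4601 genes were higher and 229 lower, so the shares of glycolysis and respiratory chain genes were near that of all genes. Depth still differed, with UMI medians of 33770 and 29670 against 10529 and 9980.5. Among cells of 5000 to 20000 UMIs, 650 of 4526 genes were higher and 124 lower, MYC and ribosome genes were higher for 3 of 20, near the share of all genes, and glycolysis genes for 6 of 21.

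Genes of naive, resting and recirculating T cells were the lowest. Of 17 progenitor and naive genes, 13 passed and 9 were lower, with medians of -2.91 and -2.45. S1pr1, the receptor for leaving tissue, stood at -3.68 and -3.31. Tcf7 had 13.8 CPM in cycling and 152 CPM in other cells labelled WT, and 12.1 and 102 CPM in those labelled Dapl1-KO (-3.46 and -3.09). Il7r, the receptor for the survival cytokine IL-7, was at -3.19 and -2.45 and Bcl2, which blocks cell death, at -2.78 and -2.52. Id3 (-3.87 and -2.94) and Dapl1 (-2.85 and -2.41) were in the same group. With a Pdcd1 UMI on both sides, 6 of 11 progenitor and naive genes were lower (-1.20 and -0.95).

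The count of inhibitory receptors that differed depended on depth. Of 13 inhibitory receptors, 8 passed, 1 was higher and 1 lower, with medians of 0.42 and 0.30 near those of all genes; scaled by the median of ratios they were 0.06 and 0.05, with none higher. Pdcd1 was the higher one, at 252 and 261 CPM against 124 and 170 CPM, and under the other scaling it was not called (0.66 and 0.38). Havcr2 stood at 0.67 and 0.41 and Lag3, another inhibitory receptor, at 0.41 and 0.22, and with a Pdcd1 UMI on both sides they stood at -0.14 and -0.20 and at -0.44 and -0.39. Among cells of 5000 to 20000 UMIs, 5 of 9 inhibitory receptors were higher and none lower (medians 0.94 and 0.62, against 0.33 and 0.22 over all genes). Havcr2 and Lag3 were among them, at 1.17 and 0.62 and at 1.09 and 0.63. Tox, a factor of exhaustion, had 139 and 130.1 CPM against 93.1 and 85.5 CPM and was not called.

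Of 19 cytotoxic granule genes, 17 passed, 4 were higher and 1 lower (medians 0.27 and -0.07; with the median of ratios 2 higher and 3 lower). The share that was higher, 23.5%, was near the 26.9% of all genes tested. Gzmb, granzyme B, stood at 1128 and 1754 CPM against 403 and 1027 CPM and Prf1, perforin, at 216 and 402 CPM against 92.6 and 224 CPM. Both were higher in cycling cells, Gzmb by 1.48 and 0.77 and Prf1 by 1.22 and 0.84. Scaled by the median of ratios, Gzmb was not called (1.13 and 0.53). Gzma, granzyme A, stood at -0.49 and -2.23, and Gzmk at 0.49 and 0.07, and neither was called. Il2ra, the high-affinity IL-2 receptor chain, was higher by 1.52 and 0.89, and Irf8, an interferon regulatory factor, by 1.51 and 1.02. With a Pdcd1 UMI on both sides none of Gzmb, Prf1, Il2ra and Irf8 was called, with log2 ratios between 0.24 and 0.78.

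The next counts stand beside 26.9% of all genes tested that were higher and 7.99% that were lower. Of 24 T cell receptor response genes, 20 passed, 2 were higher and 7 lower. Of 20 chemokine and homing genes, 17 passed, 1 was higher and 7 lower. The AP-1 gene Jun stood at -1.71 and -1.16 and Cd69, which holds T cells in tissue, at -2.16 and -1.89. The costimulatory receptor gene Tnfrsf4 was among the higher genes at 1.14 and 0.95. Interferon response genes were lower for 5 of 10 that passed of 25 (medians -0.57 and -0.63) and higher for none. Among cells of 5000 to 20000 UMIs, interferon genes were lower for 2 of 13 (0.02 and -0.14), and 1 T cell receptor response gene was higher and 1 lower of 20. Heat shock and unfolded protein genes split, with 7 of 20 higher and 4 lower: Hsp90b1, a chaperone of the endoplasmic reticulum, stood at 1.29 and 1.11, and Hspa1b, an inducible HSP70, at -2.53 and -0.94. Cytokine receptor and STAT feedback genes had 1 higher and 7 lower of 20, and the feedback gene Socs3 stood at -2.32 and -1.54. Amino acid transport and mTORC1 genes had 5 higher and 2 lower of 13 (3 and 2 without the members rich in melanocytic or stromal UMIs), and exhaustion and effector regulators 1 higher and 2 lower of 16.

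The members were spread along the cycle. Each cell was thinned to 3000 UMIs, its S-phase UMIs (32 genes) and G2/M UMIs (39 genes, neither Mki67 nor Top2a) were counted, and 813 and 1596 cells had any. Medians were 9 and 11 S UMIs and 6 and 7.5 G2/M UMIs, against 2 and 1 in other CD8 T cells of both libraries. The G2/M part of the sum had medians of 0.40 and 0.391 over cells. A cell was placed in the S range when that part was under 0.333 and in the G2/M range when it was over 0.667, which are ranges of a score and not types, and 24.5% and 24.6% of cells lay within 0.05 of a cut. The S range held 36.5% (33.2 to 39.9) and 39.2% (36.8 to 41.7) of cells labelled WT and Dapl1-KO, the mixed range 45.8% and 46.4%, and the G2/M range 17.7% (15.1 to 20.5) and 14.4% (12.7 to 16.2). The G2/M shares differed by -3.30 points, and their intervals overlapped. Of the members, 17.99% and 31.7% had a UMI of a macrophage, B cell or melanocytic marker, and levels along the ranges are given without those cells.

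Genes outside both scoring lists followed the ranges. Of 4439 genes tested in the 250 and 434 S-range and the 120 and 162 G2/M-range cells, 105 were at least 1.5-fold higher (2.37%) and 140 lower (3.15%) in the G2/M range in both libraries. With those cells left in, 206 of 4642 were higher (4.44%) and 96 lower (2.07%). Cdkn3, a phosphatase of CDKs, led. It went from 15.005 CPM in the S range over 37.5 in the mixed range to 96.2 CPM in the G2/M range of cells labelled WT, and from 19.1 over 47.9 to 126 CPM in cells labelled Dapl1-KO. Cdc25b, the phosphatase that activates CDK1, went from 10.1 over 20.3 to 57.2 CPM and from 9.89 over 27.2 to 65.5 CPM. Both climbed through the mixed range in each library. Hist1h2bc, a histone gene also known to give polyadenylated messages, went from 43.5 to 209 CPM and from 63.2 to 372 CPM, and Tubb4b, whose promoter is printed above, from 141 to 351 CPM and from 206 to 635 CPM. Fzr1, which encodes the late anaphase-promoting complex activator CDH1, was higher by 1.24 and 1.49 on the log2 scale.

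Many genes of the E2F wave went the other way. E2f1 fell from 27.3 CPM in the S range over 13.9 to 4.33 CPM in the G2/M range of cells labelled WT, and from 32.6 over 18.7 to 4.86 CPM in those labelled Dapl1-KO. Ccne1, cyclin E1, stood at -1.95 and -2.07 (log2, G2/M over S range) and Orc6, of the origin recognition complex, at 119 against 55.0 CPM and 121 against 45.4 CPM. By list, 11 of 12 deoxynucleotide supply genes were lower (medians -0.91 and -1.03) and 10 of 17 fork genes, against medians of 0.03 and -0.01 over all genes. The E2F, retinoblastoma and G1 cyclin list had 5 lower of 14, and replication licensing genes had 2 lower and 1 higher of 6. Of 24 MYC and ribosome genes, 6 were lower and none higher (-0.46 and -0.50), with Srm at 67.3 against 24.9 CPM and 61.4 against 13.9 CPM. Il2ra was lower as well, at 39.3 CPM in the S range against 21.7 CPM in the G2/M range of cells labelled WT and at 42.1 against 13.2 CPM in the other library. Of 12 spindle genes, 8 were higher and 1 lower, and of 14 kinetochore genes 6 were higher. None of 7 inhibitory receptors, 20 glycolysis genes or 25 respiratory chain genes was called in either direction.

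**Figure D3:**
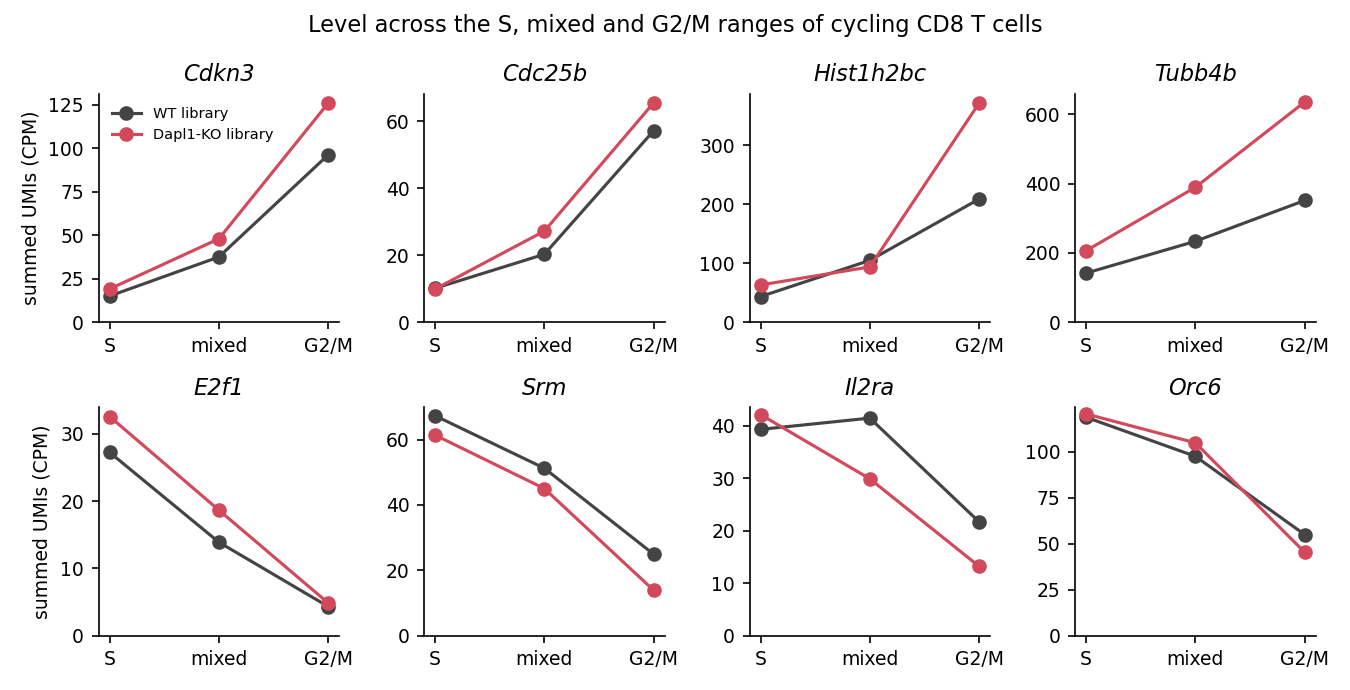
Level of 8 genes (y axis, CPM of summed UMIs, each panel on its own linear scale from 0) in the S, mixed and G2/M ranges of cycling CD8 T cells without UMIs of macrophage, B cell or melanocytic markers; 1 line per library. Cdkn3, Cdc25b, Hist1h2bc and Tubb4b are highest in the G2/M range of both libraries, and E2f1, Srm, Il2ra and Orc6 are lowest there, with E2f1 at 4.33 and 4.86 CPM.

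Between the libraries, cycling cells differed in few genes. Of 4793 genes tested, 97 were at least 1.5-fold higher (2.02%) and 65 lower (1.36%) under the Dapl1-KO label (3.38% in all), with a median log2 ratio of 0.03. In other CD8 T cells, 269 of 4369 genes were higher (6.16%) and 115 lower (2.63%), 8.79% in all, with a median of 0.09. Of 3985 genes tested in both classes, 116 were called in cycling and 300 in other cells, 74 of them in both and in the same direction, and 0 in opposite directions. The cycling class rests on more UMIs, 30475462 and 55815778 against 26384894 and 27270665. What this does to the counts of called genes was not tested. The other CD8 T cells also differed in make-up between the libraries. With all UMIs, 46.8% and 30.7% of them were naive or central memory cells, and 11.6% and 19.1% were Ly6c2 or Gzma effectors. Naive or central memory cells were 4.90% and 2.37% of cycling cells. The part of this make-up in the ratios was not tested, nor was whether the classes differ in their response.

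Klre1, Ly6c2 and 3 of 17 cytotoxic granule genes were higher in cycling cells labelled Dapl1-KO. Klre1, a lectin receptor of NK and T cells, stood at 58.5 CPM in WT-labelled and 137 CPM in Dapl1-KO-labelled cells, a log2 ratio of 1.22 (1.15 to 1.30), and at 1.61 in other CD8 T cells. Ly6c2, a surface antigen of memory and effector T cells, stood at 87.7 and 188 CPM (1.10, 1.04 to 1.16; 1.11 in other cells). Prf1 went from 216 to 402 CPM (0.90; 1.27 in other cells) and Gzmb from 1128 to 1754 CPM (0.64; 1.35). Ifng, interferon-gamma, stood at 194 and 295 CPM (0.60). These 3 were the called members of 17 cytotoxic granule genes that passed (median 0.31), against 8 of 17 in other CD8 T cells (median 0.57). Over all genes tested, 2.02% were higher in cycling and 6.16% in other CD8 T cells. Without the members rich in melanocytic or stromal UMIs 5 of 17 were higher, with Gzmc (0.63) and Cst7 (0.60) added, and among cells of 5000 to 20000 UMIs 4 were higher and 2 lower of 18. Gzma, at 125 and 155 CPM, was not called in cycling cells (0.31) but was among those of 5000 to 20000 UMIs (1.16), and in other CD8 T cells it stood at 175 and 730 CPM (2.06). Areg, the growth factor amphiregulin, stood at 30.9 and 117 CPM (1.92), with 18.3% of the UMIs labelled WT in 1 cell, and at -0.13 among cells of 5000 to 20000 UMIs.

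Of 25 interferon response genes, 11 passed and all 11 had a ratio above 0. Of these, 5 were called higher (median 0.54), beside 2.02% of all genes tested. In other CD8 T cells 10 of 16 were called higher (median 0.78), beside 6.16% of all genes tested there. Among cycling cells of 5000 to 20000 UMIs 4 were higher and 2 lower of 12 (median 0.40). Isg15, a ubiquitin-like protein induced by interferon, stood at 11.8 and 29.8 CPM (1.34, 1.17 to 1.51). Zbp1, a sensor of nucleic acids, stood at 28.6 and 55.4 CPM (0.96). Also called were Ifitm3 (0.62, and -0.99 among cells of 5000 to 20000 UMIs) and Ifitm1, at 9.32 and 24.1 CPM (1.37), for which 1 cell held 54.9% of the UMIs labelled WT. In other CD8 T cells Ifitm1 stood at 8.30 and 146 CPM (4.14). Irf8 (186 and 309 CPM, 0.73) and Il2rb, the IL-2 and IL-15 receptor beta chain (262 and 416 CPM, 0.67), were also higher. The IL-18 receptor genes Il18r1 and Il18rap were lower, at -0.70 and -0.68.

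**Figure D4:**
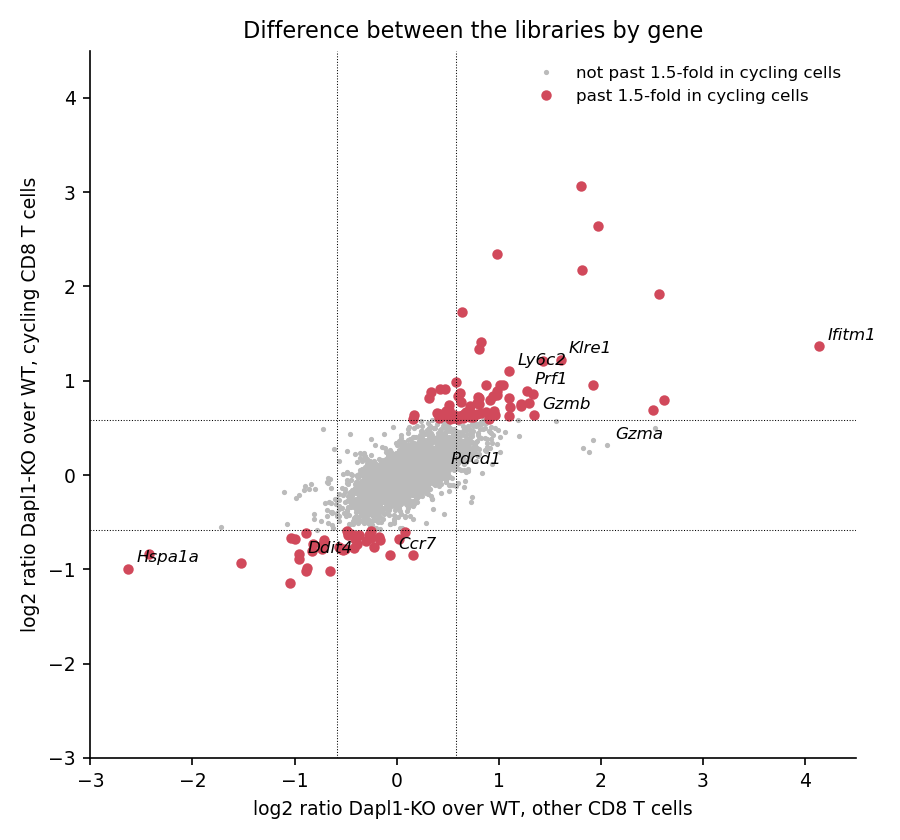
Log2 ratio of Dapl1-KO-labelled over WT-labelled cells in cycling CD8 T cells (y axis) against the same in other CD8 T cells (x axis), 1 point per gene tested in both classes; 3983 of 3985 genes are shown, and Tsix and Xist lie outside the axes. Dotted lines mark 1.5-fold; Ifitm1 (1.37 and 4.14) and Gzma (0.31 and 2.06) are nearer to 0 in cycling cells.

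Chemokine and homing genes split. Of 15 that passed of 20, 4 were higher and 2 lower, beside 2.02% and 1.36% of all genes tested. Among the higher, Ccl3, a chemokine made by activated T cells, stood at 215 and 378 CPM (0.81), Cxcr6, a receptor of tissue T cells, at 100.3 and 170 CPM (0.76), and the integrin gene Itgb7 at 11.7 and 21.4 CPM (0.87). Ccr7, the receptor for lymphoid tissue, was lower at 125 and 69.5 CPM (-0.85, -0.91 to -0.78). It stood at 134 and 128 CPM in other CD8 T cells (-0.07) and at 0.049 among cycling cells that had Y-linked UMIs but lacked Xist. Ccl1, another chemokine, was lower at 35.4 and 19.7 CPM (-0.85), at 0.40 among cells of 5000 to 20000 UMIs and at 2.87 among the Y-linked cells, and 1 cell held 25.4% of its UMIs labelled WT.

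With cells of all depths, few replication and mitosis genes were called, and some stress and histone genes were lower. Over all genes tested, 2.02% were higher and 1.36% lower. The HSP70 genes Hspa1a (214 and 108 CPM, -0.99) and Hspa1b (134 and 75.02 CPM, -0.84) were lower, and in other CD8 T cells they stood at -2.63 and -2.43. Ddit4, a stress-induced inhibitor of mTORC1, stood at 77.4 and 41.7 CPM (-0.89) and Tsc22d3, the glucocorticoid target GILZ, at 82.8 and 49.7 CPM (-0.74). Of 17 clustered histones that passed, 3 were lower and 0 higher (median -0.36), with Hist1h2ap at 1206 and 675 CPM (-0.84), and only Hist1h2bc was above 0. None of 17 replication licensing genes was called, although 16 were above 0 (median 0.26). All 28 S-phase scoring genes that passed were above 0 (median 0.28). Among cells of 5000 to 20000 UMIs, 10 of 16 licensing genes were called higher (median 0.67). So were 14 of 26 fork genes, 7 of 13 deoxynucleotide supply genes and 8 of 25 spindle genes there, with none lower. Of all 4944 genes tested at that depth, 252 were higher and 237 lower. Rrm2 was higher by 0.61, and among 23 spindle genes Tuba1c (0.77) and Tubb4b (0.64) were higher. Mxd1 stood at 40.3 and 72.0 CPM (0.84) and Myc at 23.8 and 15.9 CPM (-0.58, not called).

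Pdcd1, Havcr2 and Lag3 were not called between the labels in cycling cells. Pdcd1 stood at 252 and 261 CPM (0.05, 0.01 to 0.09), Havcr2 at 79.9 and 74.8 CPM (-0.10, -0.17 to -0.02) and Lag3 at 177 and 180 CPM (0.02, -0.02 to 0.07). In other CD8 T cells these ratios were 0.45, 0.17 and 0.21. Tox (-0.09), Tcf7 (-0.19), Gzmk (0.04) and Cdkn1a (-0.01) were not called either, and none of their intervals reached 1.5-fold. Of 9 inhibitory receptors that passed, the ectoenzyme gene Cd38 (0.59) and Vsir (0.61) were higher, and without the members rich in melanocytic or stromal UMIs Entpd1 (0.60) was as well. Of 15 exhaustion and effector regulators, 1 was higher, Irf8 (0.73), and the lowest was Eomes (-0.51, not called). All genes tested gave 2.02% higher and 1.36% lower.

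The 12 highest genes of the ranking included Pmel (2.49), Tyrp1 (2.001), Mlana (1.86) and Dct (1.41), pigment genes of the melanocytic markers. Without the 5 and 22 members rich in melanocytic or stromal UMIs, Dct stood at -3.31, and 91 genes were higher and 69 lower, of which 73 and 53 were among those called with all members. Col1a1, the lowest gene of the ranking, which leaves out sex-linked genes, was at -7.77, with 2254 of its 2264 UMIs labelled WT in 1 cell. Klre1 (1.27), Ly6c2 (1.15), Prf1 (0.94) and Gzmb (0.69) were as large without those members. Sex-linked genes differed as the cells' Xist and Y counts did: Xist stood at 673 and 0.233 CPM, Ddx3y at 4.59 and 38.6 CPM and Eif2s3y at 11.7 and 73.5 CPM.

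Cycling regulatory T cells (121 and 134 cells with Foxp3, Mki67 and Top2a and without Cd8a or Cd8b1) were compared as another dividing T cell class. Of 4722 genes tested, 172 were at least 1.5-fold higher (3.64%) and 278 lower (5.89%) in cycling CD8 T cells (9.53% in all) in both libraries, with all-gene medians of -0.06 and 0.02. None of 31 G2/M genes and none of 28 S genes of the scoring lists was called (medians -0.03 and -0.16, and -0.34 and -0.03). Ccna2 stood at 76.6 and 92.7 CPM in CD8 and at 88.6 and 104 CPM in regulatory cells. Clustered histones were lower in CD8 T cells for 6 of 21 (medians -0.41 and -0.95).

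Cytotoxic granule genes were higher in cycling CD8 T cells for 13 of 17 that passed (2.48 and 2.42). Gzmk stood at 124 and 127 CPM in CD8 and at 3.81 and 3.97 CPM in regulatory cells, and Prf1 at 216 and 402 CPM against 16.1 and 26.4 CPM. Gzma was not called, at 125 and 155 CPM against 147 and 98.9 CPM. Of 7 inhibitory receptors, 5 were higher: Pdcd1 (1.04 and 0.70), Havcr2 (1.35 and 0.88), Lag3 (1.05 and 1.001), Cd160 (3.74 and 4.19) and Cd96 (2.96 and 3.13). Ctla4 was lower, at 226 and 291 CPM against 932 and 1133 CPM, and so was Il2ra (-1.58 and -2.21), both known as regulatory T cell genes. Interferon response genes were lower for 5 of 10, with Ifi27l2a at -2.29 and -2.43. The regulatory cells labelled WT carried 1270 CPM of melanocytic markers and those labelled Dapl1-KO 8.27 CPM, and the part of this in the comparison was not tested.

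The cycling cells rich in granzymes D to G (81 and 73 cells, UMI medians 45796 and 44370) were the other cycling class compared. Of 4568 genes, 76 were higher (1.66%) and 88 lower (1.93%) in the members, 3.59% in all, with medians of 0.08 and 0.07. Gzmc, Gzmb and Prf1, which are not in the rule, were lower. Gzmc stood at 337 and 502 CPM in the members and 4033 and 5181 CPM in the rich cells. Gzmb stood at -1.54 and -1.43 and Prf1 at -1.61 and -1.45. Il2ra was also lower (-1.39 and -1.86), as were the ectonucleotidase gene Entpd1 (-0.84 and -0.68) and the costimulatory receptor gene Tnfrsf9 (-0.69 and -0.74). The members were higher in Gzma (125 and 155 CPM against 28.1 and 66.3 CPM), Gzmk (0.96 and 0.84), Nr4a1, an early response factor of the T cell receptor (1.82 and 1.28), and Bcl2 (1.13 and 1.14). Of 14 clustered histones, 4 were higher in the members, and none of the 28 S and 31 G2/M scoring genes was called.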

How the data were processed

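UMI counts, deposited by the authors as whole numbers without normalization, were read for 32285 genes. Cell Ranger 5.0.0 and the builds mm10 and GRCm38 are named in the submitters' processing notes. Of barcodes in both libraries only a copy with at least 2 times the other's UMIs was kept, and cells needed 500 genes and at most 10% mitochondrial UMIs. Groups came from the genotype labels. The automatic limit of Scrublet (scanpy 1.11.5) called 0 doublets, so none were removed in the main analysis, and a limit set at 0.8% per 1000 cells was an alternative. Class totals ran from 3024588 to 55815778 UMIs. Counts were summed per class and library and scaled to CPM, and log2 ratios carry exact binomial intervals. Genes needed 20 CPM, in a library for the comparison of labels and in either class of both libraries otherwise, and 3 counts stood in for 0. Differences of shares carry Newcombe intervals and shares Clopper-Pearson intervals. PCR and pooling error are outside all of them.

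Named genes are the 15 highest and lowest (12 between labels) at 50 CPM, up to 4 members of each list with the largest ratios and a fixed set. Other genes in the text are list members or range-ordered genes picked after their values were seen. A few list members are counted but not reported by name here. The members and lists were chosen with earlier results of these data known. The ratio calculation was tested on simulated data. Python 3.11.15, numpy 2.4.6, scipy 1.17.1, pandas 2.3.3 and matplotlib 3.10.9 were used. Alternatives covered the copy rule, stricter cells, doublets, the gate, thinning, depth, Y-linked cells, scaling and the filter; 5 were added after seeing the data: CD8 cells without naive cells, Pdcd1 on both sides, ranges without other cell types' UMIs, thinning to 8000 UMIs, and members without melanocytic or stromal UMIs.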

Additional observations from a re-analysis of the deposited data

How the results depend on the processing

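No paired analysis was possible because each label has 1 library. The difference in cycling share (9.60 points, higher in the library labelled Dapl1-KO) kept its direction in all 11 alternatives run. It was 4.93 with all barcodes, 5.51 with thinned cells, 5.27 at 5000 to 20000 UMIs, 19.1 in Y-linked cells without Xist, 7.52 without cells with UMIs of another type, 7.83 without naive cells and 5.43 without them and thinned. The G2/M share differed by -3.30 points, and by -7.33 in the Y-linked cells.

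For cycling against other CD8 T cells, the counts of higher and lower genes (1273 and 378) were 582 and 135 with thinned cells, 650 and 124 at 5000 to 20000 UMIs, 745 and 700 with the median of ratios, 686 and 180 at 50 CPM, 3675 and 2515 with no filter and 818 and 229 with Pdcd1 on both sides. Between labels the counts (97 and 65) were 56 and 39 with all barcodes, 497 and 330 in Y-linked cells, 252 and 237 at 5000 to 20000 UMIs, 52 and 29 at 50 CPM and 2499 and 4305 with no filter. The cause of these shifts was not tested, beyond fewer genes tested at 50 CPM and more with no filter.

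The mean log2 ratio of cycling over other CD8 T cells changed sign for Xist (-0.14 with all barcodes), Gzmc (-0.063 with thinned cells), Ifi27l2a (0.19) and Gzma (0.10) at 5000 to 20000 UMIs, and Pdcd1 (-0.13 with Pdcd1 on both sides). Between labels it did for Ccr7 (0.049), Hmgcs1 (0.36), Ccl1 (2.87) and Eif2s3y (-0.43) in Y-linked cells, Areg (-0.13) and Ccl1 (0.40) at 5000 to 20000 UMIs, and Dct (-3.31) without melanocytic or stromal cells. Of the other values of single genes, 2939 moved by less than their counting interval and 1292 by more. Ifitm3, given above, also changed sign between labels at 5000 to 20000 UMIs and is not in this count. The order of the state shares changed with depth.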
